A study of Mus musculus with 4 samples.

Results

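The genes described here lie at 3 imprinted loci of the mouse genome: Mest with its neighbours Cep41, Copg2 and Klf14 on chromosome 6, Plagl1 on chromosome 10, and the Peg10/Sgce cluster with Casd1, Ppp1r9a and Pon2 at the proximal end of chromosome 6. These 10 genes were taken by symbol from 54838 gene identifiers, and 9 of them were among the 15191 genes that passed the filter on low counts. RNA was sequenced from E14 cells (E14Tg2a.4), an embryonic stem cell line of mouse strain 129/Ola that was kept on gelatin in serum with leukemia inhibitory factor. There were 2 wild-type libraries and 2 libraries of MLC460, a line derived from these cells with CRISPR/Cas9 in which a monomeric enhanced green fluorescent protein is joined to the N-terminus of the endogenous histone acetyltransferase p300. All knock-in material came from this 1 line, so the tag and anything else acquired when the line was made cannot be told apart. Per the series' design text, the 2 libraries of each line were biological replicates.

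Imprinted genes are transcribed mainly from the copy inherited from 1 parent, according to DNA methylation set in the germ line and kept after fertilization. Mest, Plagl1, Peg10 and Sgce are classed as paternally expressed in the mouse, while Copg2 and Klf14 are classed as maternally expressed, and Ppp1r9a and Pon2 show a maternal bias in some tissues. Casd1 and Cep41 are weakly imprinted or not imprinted and serve here as neighbours. In stem cells in culture such marks can be lost or gained. The counts do not separate the parental copies, and a bulk library cannot tell fewer expressing cells from less RNA per cell.

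The members were chosen by the measured difference between knock-in and wild-type cells: Mest and Plagl1 were among the genes that passed its test, and the rest were added as their neighbours and as another imprinted locus. All values for the members are therefore a description, and no test is given for them. The intervals printed for members come from the same fit and are adjusted neither for this choice nor for the number of genes. They are not read as tests, and their stated coverage cannot be relied on for Mest and Plagl1. For reference, 2 of the 9 tested members (Mest and Plagl1) were lower in knock-in cells at an edgeR adjusted p of 0.05, where 0.0592% of all genes tested were, and 0 were higher, where 0.00658% of all genes were, or 0.0658% in either direction. Just inside that threshold were Ccnd2 and Rhox13, with log2 fold changes of -1.48 and -2.02, and just outside it were Col4a1, Col4a2 and Pramef17, with -1.10, -1.23 and -2.42.

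The starts of Mest and Plagl1 are shown because these are the members with the largest differences between the lines. RefSeq promoter windows on GRCm38.p6, from 250 bases before to 50 bases after a transcript start, were matched by symbol for 7 of the 10 members. The hexamer TGCCGC, which the imprint-keeping zinc finger protein ZFP57 recognises when methylated, was searched for on both strands. It occurs in 11.6% of 32851 such windows, and at least 2 matches occur in 1.53%. Capitals mark the matches in either orientation, TGCCGC or GCGGCA. The first window is the CpG-rich Mest promoter (chr6:30737800-30738099, plus strand), the second an upstream Mest start (chr6:30733256-30733555, plus strand), and the third the Plagl1 promoter (chr10:13090582-13090881, plus strand).
Mest promoter: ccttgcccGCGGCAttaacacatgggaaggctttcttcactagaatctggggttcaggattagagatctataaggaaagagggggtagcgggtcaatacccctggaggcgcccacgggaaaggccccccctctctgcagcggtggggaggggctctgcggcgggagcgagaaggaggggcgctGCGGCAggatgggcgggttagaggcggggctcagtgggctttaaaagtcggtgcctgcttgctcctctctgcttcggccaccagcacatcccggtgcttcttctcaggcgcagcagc
Mest upstream start: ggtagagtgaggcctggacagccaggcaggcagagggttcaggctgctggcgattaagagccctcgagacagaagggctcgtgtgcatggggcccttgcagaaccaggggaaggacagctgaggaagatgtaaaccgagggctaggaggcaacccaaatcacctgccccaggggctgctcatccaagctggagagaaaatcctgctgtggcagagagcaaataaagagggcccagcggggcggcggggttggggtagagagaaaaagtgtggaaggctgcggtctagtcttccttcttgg
Plagl1 promoter: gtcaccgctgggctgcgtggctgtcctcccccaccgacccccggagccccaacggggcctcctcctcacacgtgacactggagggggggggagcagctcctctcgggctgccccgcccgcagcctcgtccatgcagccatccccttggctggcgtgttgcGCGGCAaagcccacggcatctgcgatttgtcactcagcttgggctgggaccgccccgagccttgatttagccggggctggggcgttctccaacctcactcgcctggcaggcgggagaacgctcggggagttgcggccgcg
The Mest promoter held 2 matches and 17 CpG dinucleotides, the upstream Mest start 0 matches and 8 CpG, and the Plagl1 promoter 1 match and 26 CpG, against a median of 7 CpG over all windows. Among the neighbours, the Copg2 window held 1 match and 25 CpG, the Cep41 window 0 and 19, the Pon2 window 0 and 31, and the Casd1 window nearest its annotated start 1 and 23. The 2 Ppp1r9a windows held 0 matches, with 48 and 10 CpG. A high CpG count was thus not particular to the starts of Mest and Plagl1. These matches are letters in a window and not shown to be bound, and methylation was not measured. Reads were counted per gene, so the counts do not say which start was used.

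Mest encodes a protein of the alpha/beta hydrolase fold and is strongly expressed in embryonic mesoderm. It lies on chromosome 6 of GRCm38 (30723547 to 30748465, plus strand, ENSMUSG00000051855). Levels are counts per 1000000 assigned reads (CPM), scaled between libraries by edgeR's trimmed mean of M-values (TMM). Wild-type 1 held 41.0 CPM of Mest (1129 reads) and wild-type 2 held 54.2 CPM (1196 reads), while knock-in 1 held 10.2 CPM (248 reads) and knock-in 2 held 8.45 CPM (158 reads). Both knock-in libraries were far below both wild-type libraries, and the groups did not overlap. The mean went from 47.6 ± 9.39 to 9.31 ± 1.22 CPM (SD, n = 2 each). The log2 fold change was -2.35 (SE 0.21), so that knock-in cells held 19.6% of the wild-type level (95% interval 14.1% to 27.3%). Among all genes tested it had the 32nd most negative fold change.

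Copg2, which encodes a gamma subunit of the COPI vesicle coat, is transcribed towards Mest, and the exons of these genes overlap by 912 bases at their 3′ ends. Its level was 63.5 and 54.7 CPM in wild-type and 64.7 and 64.0 CPM in knock-in cells. The knock-in values lay just above the higher wild-type value, with a log2 fold change of 0.12 (SE 0.16, 95% interval -0.24 to 0.48). Within each library, there were 0.645 and 0.993 Mest reads per Copg2 read in wild-type, and 0.157 and 0.132 in knock-in cells. This ratio, which does not depend on how libraries are scaled, fell by 2.47 on the log2 scale between the group means. An exact permutation test of 2 against 2 libraries cannot give a two-sided p below 0.333, so the ratios are given without one.

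Reads in the overlap of Mest and Copg2 are left out of the unstranded counts as ambiguous, but each is counted for both genes once the strand columns are added. The wild-type libraries held 387 and 135 of them, the knock-in libraries 108 and 52. These reads amounted to 14.0 and 6.12 CPM in wild-type and to 4.43 and 2.78 CPM in knock-in cells. The overlap was thus lower in both knock-in libraries, but the wild-type libraries also differed. Outside the overlap, Mest was higher in wild-type 2 (41.0 and 54.2 CPM) and Copg2 in wild-type 1 (63.5 and 54.7 CPM). Which gene the shared reads came from was not tested. If all of these reads were Mest's, its level would be 55.0 and 60.4 CPM in wild-type and 14.6 and 11.2 CPM in knock-in cells, and the log2 fold change -2.17. Counted wholly to Copg2, they would bring its level to 77.5 and 60.8 CPM in wild-type and 69.1 and 66.7 CPM in knock-in cells, and its log2 fold change to -0.045. The direction for Copg2 therefore turned with the assignment of the shared reads, and also with the GC correction described below (-0.031), while that for Mest did not. Overlap reads made up 25.5% of such a Mest total in wild-type 1, 30.3% in knock-in 1 and 24.8% in knock-in 2, but 10.1% in wild-type 2.

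**Figure D1:**
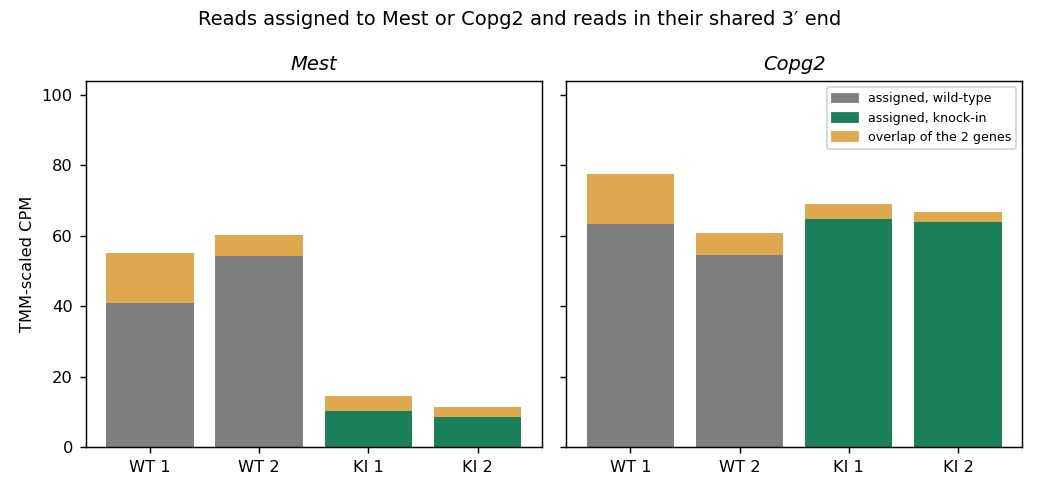
Stacked bars of TMM-scaled CPM in each library (WT wild-type, KI knock-in) for reads assigned to Mest or Copg2 alone, with the reads in their shared 3′ end on top in both panels. With the shared reads added, Mest stands at 55.0 and 60.4 CPM in wild-type and at 14.6 and 11.2 CPM in knock-in libraries.

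Cep41, a centrosomal and ciliary protein gene, starts 29.798 kb from the annotated Mest start. It had 12.5 and 9.84 CPM in wild-type and 12.5 and 12.7 CPM in knock-in cells, with a log2 fold change of 0.17 (SE 0.21). Wild-type 1 was level with the knock-in libraries and wild-type 2 lower. Klf14, an intronless Kruppel-like factor gene, was close to silent: 5 and 4 reads in wild-type and 0 and 1 in knock-in libraries, too few for the filter, and no fold change is given. The 0 reads in knock-in 1 allow up to 0.123 CPM, by counting error alone (3 reads). Its wild-type values were 0.181 CPM in each library, so Klf14 lay low in both lines.

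Plagl1 encodes a zinc finger transcription factor that restrains proliferation and is known to act on other imprinted genes. It lies on chromosome 10 (13060504 to 13131694, plus strand, ENSMUSG00000019817). Its level was 11.6 and 8.35 CPM in wild-type and 1.72 and 1.82 CPM in knock-in cells, from 319, 184, 42 and 34 reads. The knock-in libraries were alike and both far below the wild-type pair, without overlap. The mean went from 9.96 ± 2.28 to 1.77 ± 0.068 CPM (SD, n = 2 each). The log2 fold change was -2.49 (SE 0.28), or 17.8% of the wild-type level (95% interval 11.53% to 27.3%). With limma-voom in place of edgeR, the log2 fold change was -2.47 and Plagl1 did not pass the threshold, which 0.0197% of all genes passed as lower there.

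Peg10 and Sgce are transcribed in opposite directions from starts 99 bases apart, and share a germ-line methylated region there. Peg10 (chromosome 6, 4747306 to 4760517, plus strand) derives from the gag and pol genes of a retrotransposon and is needed for the placenta. It had 417 and 347 CPM in wild-type and 332 and 384 CPM in knock-in cells. The groups overlapped, with a log2 fold change of -0.095 (SE 0.16, 95% interval -0.45 to 0.26), on 7172 to 11497 reads per library. An interval of that width leaves room for a level between 73.0% and 120% of wild-type.

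Sgce (chromosome 6, 4674350 to 4747207, minus strand) encodes epsilon-sarcoglycan, a membrane protein of the dystrophin-associated complex. It had 6.24 and 2.63 CPM in wild-type and 1.93 and 2.19 CPM in knock-in cells, from 172, 58, 47 and 41 reads. Wild-type 1 stood alone, and wild-type 2 was only slightly above the knock-in pair. The log2 fold change was -1.12 (SE 0.41), -0.36 without wild-type 1 and -1.62 without wild-type 2. Between the wild-type libraries Sgce differed 2.37-fold, and 2.26% of all genes tested leaned towards wild-type 1 at least as much. Each library held 66.8 and 132 Peg10 reads per Sgce read in wild-type, and 172 and 175 in knock-in cells, so the pair did not keep 1 ratio.

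Wild-type 2 deviated from the other libraries with the GC content of transcripts (Spearman rho 0.65 across genes, which are not independent replicates), and Sgce, at 38.4% GC, is at the low end of the members. With a correction for this trend, its level was 5.54 and 3.88 CPM in wild-type and 1.71 and 1.89 CPM in knock-in cells. The wild-type libraries then stood closer together and both above the knock-in pair, with a log2 fold change of -1.41. Corrected in this way, Sgce passed the threshold as lower, as did 0.889% of all genes, but with knock-in 1 also left out it did not, where 0.548% of all genes did. Mest and Plagl1 moved little with the correction, to log2 fold changes of -2.40 and -2.56. Peg10 had 398 and 375 CPM in wild-type and 329 and 374 CPM in knock-in cells after it, a log2 fold change of -0.14.

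The other genes of the Peg10 cluster did not follow Sgce. Casd1, a sialic acid O-acetyltransferase gene, starts 146.467 kb from Peg10 and had 9.58 and 7.26 CPM in wild-type and 11.1 and 10.0005 CPM in knock-in cells (log2 fold change 0.32, SE 0.22). Its knock-in values were slightly above both wild-type values. Ppp1r9a, which encodes the actin-binding scaffold neurabin, had 39.9 and 27.4 CPM in wild-type and 40.6 and 50.7 CPM in knock-in cells (log2 fold change 0.44, SE 0.22). Knock-in 1 was almost level with wild-type 1, and the spread within each line was about as wide as the gap between them.

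Pon2, an intracellular paraoxonase gene 551.149 kb from Peg10, had 9.11 and 8.57 CPM in wild-type and 12.3 and 12.9 CPM in knock-in cells. Each pair was tight and the groups did not overlap (log2 fold change 0.51, SE 0.20, 95% interval 0.069 to 0.95). That interval is not adjusted for the number of genes tested, and Pon2 did not pass the threshold in this fit. The separation of the groups was lost with the GC correction, where the log2 fold change was 0.14. The levels were then 8.10 and 12.5 CPM in wild-type and 11.02 and 11.1 CPM in knock-in cells. Pon2 transcripts hold 38.7% GC, close to Sgce, and the correction lowered the log2 fold changes of both. Without wild-type 1, the log2 fold changes of Casd1, Ppp1r9a and Pon2 were 0.54, 0.74 and 0.56, and all 3 passed as higher in a fit in which 19% of all genes passed as higher and 32.1% in either direction. With the GC correction added to the same 3 libraries, the values were 0.17 for Casd1, 0.49 for Ppp1r9a and -0.17 for Pon2. Of these 3 genes, Ppp1r9a alone then passed, where 6.3% of all genes passed as higher.

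**Figure D2:**
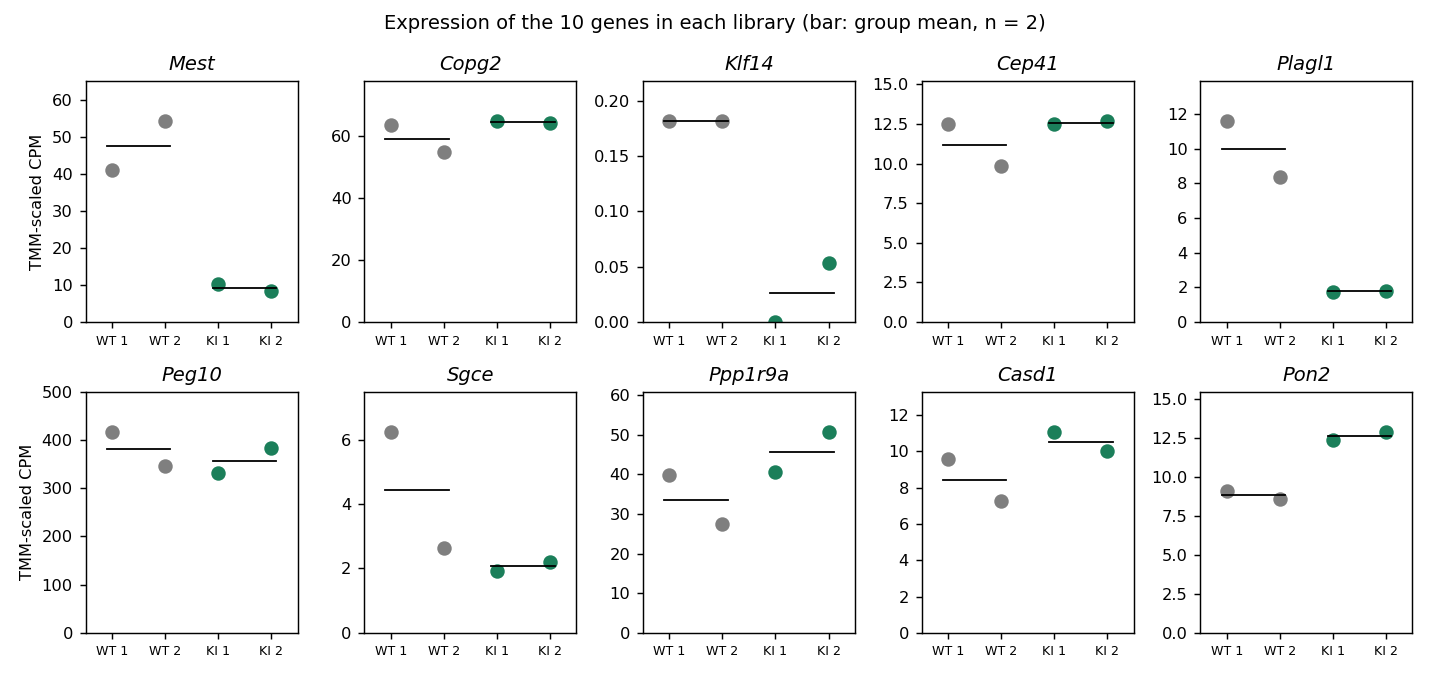
TMM-scaled CPM of each member in the wild-type (WT, grey) and knock-in (KI, green) libraries, each panel on its own scale from 0, with a line at the mean of each group. Mest and Plagl1 show separate groups, Sgce a single high library (wild-type 1, 6.24 CPM), and Peg10 groups that overlap.

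Of the 9 tested members, Mest, Plagl1 and Sgce had both knock-in libraries below both wild-type libraries, Copg2, Cep41, Casd1, Ppp1r9a and Pon2 had both above, and Peg10 overlapped. Over all genes tested, 23.9% had knock-in below and 23.4% above, and the choice of members rests on the same comparison, so these counts describe the loci and support nothing. After the GC correction Copg2 and Pon2 overlapped, and Peg10 lay below by a margin of less than 1 CPM, where 20.8% of all genes lay below and 28.3% above.

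Levels of different genes were compared per length, as reads per kilobase of exon and 1000000 reads (RPKM), since CPM grows with transcript length. Reads in the 912-base overlap of Mest and Copg2 were left out of these values, but the exon lengths kept those bases. The RPKM of both genes is therefore too low against the other genes. In wild-type cells Peg10 was far above the rest at 57.3 ± 7.47 RPKM (SD, n = 2). Mest at 12.1 ± 2.38 and Copg2 at 11.54 ± 1.22 RPKM came next and did not differ beyond their spread. Ppp1r9a (2.31 ± 0.609), Cep41 (2.24 ± 0.375) and Casd1 (2.09 ± 0.407 RPKM) formed a group within their spread, followed by Plagl1 at 1.27 ± 0.292 and Pon2 at 1.21 ± 0.051 RPKM, also within it. Sgce was lower at 0.418 ± 0.241 RPKM. In knock-in cells Peg10 and Copg2 kept the upper ranks at 53.7 ± 5.48 and 12.6 ± 0.0995 RPKM. Mest stood at 2.36 ± 0.309 RPKM there and its neighbour Cep41 at 2.53 ± 0.023. Their order is not settled, since the Mest value leaves out the overlap reads. Plagl1 at 0.226 ± 0.00865 RPKM stood beside Sgce at 0.194 ± 0.018.

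Genes around the 3 loci were taken by position, as those whose start lay within 500 kb of the start of Mest, Plagl1 or Peg10. Of 68 such genes other than the members, 16 were tested and 0 passed, higher or lower (edgeR, lowest adjusted p = 0.460). Over all genes tested 0.0658% passed, so few calls could be had among 16 genes. At an unadjusted edgeR p of 0.05, 0 of the 16 passed, against 1662 of all 15191 genes. Their median log2 fold change was 0.046, with a range from -1.09 to 0.53. The DESeq2 Wald test and limma-voom also called 0 of the 16, and 123 and 4 of all 15191 genes. Without wild-type 1, 4 of the 16 passed, namely Tmem209, Gm13835 and Ltv1 as higher and Sf3b5 as lower, in a fit that called 32.1% of all genes. With the GC correction added, 3 of the 16 passed, Ltv1 as higher and Sf3b5 and Pex3 as lower, where 11.5% of all genes passed.

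Around Mest, the ubiquitin-conjugating enzyme gene Ube2h had a log2 fold change of -0.13 (SE 0.20) and Zc3hc1, a nuclear basket protein gene, 0.13 (SE 0.15). Klhdc10, which encodes a substrate receptor of a ubiquitin ligase, had -0.036 (SE 0.16) and Tmem209, a nuclear envelope protein gene, 0.15 (SE 0.16). The pseudogene Gm13835 had 0.53 (SE 0.27). Around Plagl1, the splicing factor gene Sf3b5 had -0.33 (SE 0.23), the utrophin gene Utrn 0.024 (SE 0.17) and the ribosome assembly gene Ltv1 0.37 (SE 0.18). Adat2, a tRNA deaminase gene, had 0.068 (SE 0.19), the peroxisome gene Pex3 0.078 (SE 0.20) and the fucosidase gene Fuca2 0.16 (SE 0.24). Around Peg10 the single gene at 1 CPM or more was the unnamed transcript Gm44250, at 0.13 (SE 0.55).

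**Figure D3:**
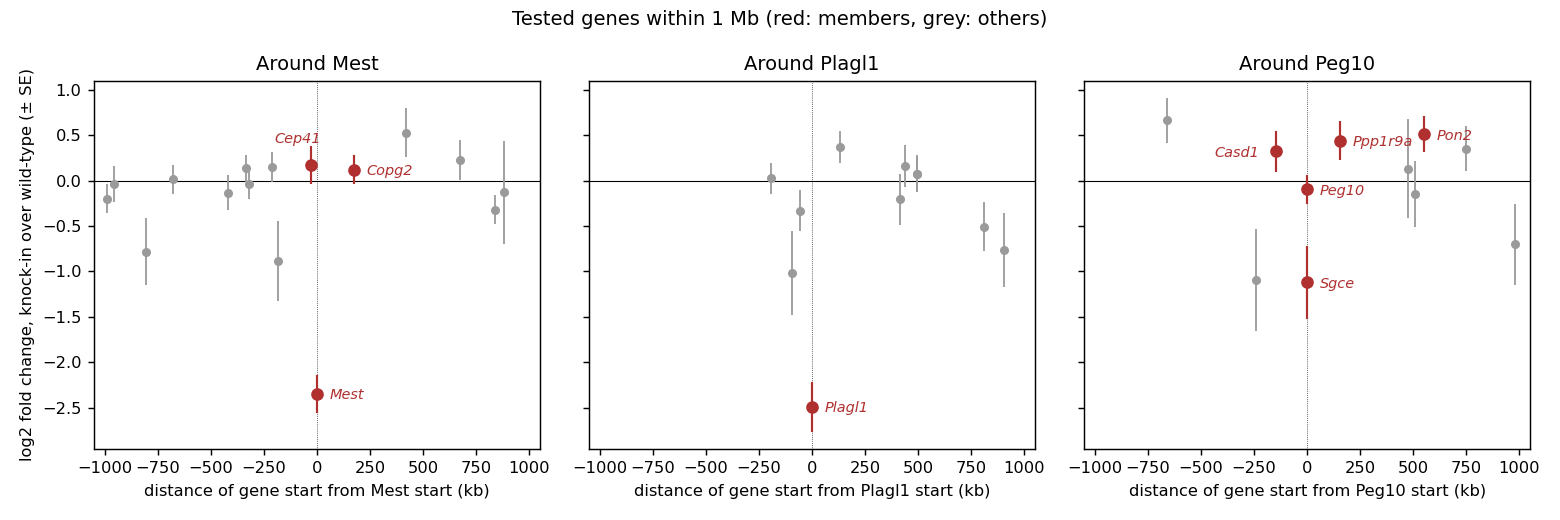
Log2 fold change (knock-in over wild-type, bars ± SE) of each tested gene within 1 Mb against the distance of its start from the start of Mest, Plagl1 or Peg10, with members in red. Mest at -2.35 and Plagl1 at -2.49 stand below every other gene in their windows, and Sgce at -1.12 sits beside Peg10 at -0.095.

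Other imprinted genes were described from lists that are not restricted to these loci. Of 26 other paternally expressed genes, 21 were tested, 0 passed as higher and 0 as lower, and 21 did not pass, with a median log2 fold change of -0.090 against 0.00098 over all genes tested. The most abundant were Slc38a4, an amino acid transporter gene, at -0.011 (SE 0.16) and Zdbf2 at 0.29 (SE 0.20). The lowest value, named after it was seen, was that of the noncoding RNA Peg13, at 0.544 and 0.816 CPM in wild-type and 0.123 and 0 CPM in knock-in cells. Of 26 other maternally expressed genes, 18 were tested and Grb10 alone passed, as higher, with 17 not past the threshold and a median of -0.060. Grb10, an adaptor that restrains growth factor signalling, had 107 and 118 CPM in wild-type and 588 and 594 CPM in knock-in cells (log2 fold change 2.39, SE 0.15, edgeR adjusted p = 0.000770). The next in abundance, the IGF2 receptor gene Igf2r, had -0.21 (SE 0.15). Phlda2, named after its value was seen, had 20.8 and 23.3 CPM in wild-type and 47.1 and 39.9 CPM in knock-in cells. It passed as higher with the GC correction, where 40 of 15191 genes did. It also passed with the replicate number as a block (46 genes higher) and with the DESeq2 Wald test (7). Without the low-count filter, Nnat, H19, Dio3 and Peg13 passed as lower, and Grb10, Phlda2 and Cdkn1c as higher. In that fit 291 of 27017 genes passed as lower and 63 as higher.

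**Figure D4:**
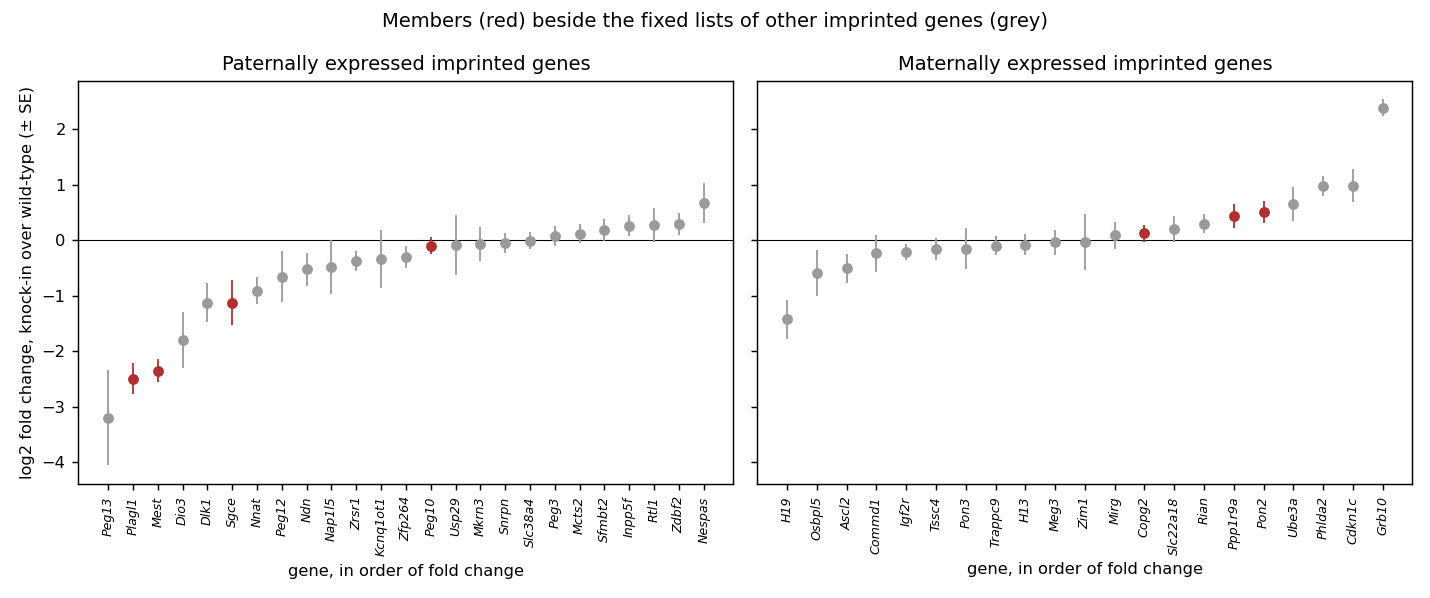
Log2 fold change (knock-in over wild-type, bars ± SE) of paternally expressed genes on the left and maternally expressed genes on the right, each in order of fold change, with members in red and the other listed genes in grey. Mest and Plagl1 lie next to Peg13 at the low end, while Peg10 lies in the middle of the left panel and Grb10 at the top of the right one.

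Genes reported as targets of Plagl1 went in both directions. Of 5 listed, 4 were tested and 0 passed. Cdkn1c, a cell cycle inhibitor gene, had 3.66 and 2.36 CPM in wild-type and 6.89 and 5.08 CPM in knock-in cells (log2 fold change 0.99, SE 0.30). Dlk1, a Notch-related ligand gene, had 2.39 and 3.58 CPM against 1.19 and 1.55 CPM (log2 fold change -1.13, SE 0.35). The noncoding RNA H19 had -1.42 (SE 0.35) and the neuropeptide receptor gene Adcyap1r1 -0.097 (SE 0.33), and both were named after their values were seen. Igf2 was nearly silent in every library, at most 0.0907 CPM. The related zinc finger genes Plag1 (log2 fold change 0.44, SE 0.32) and Plagl2 (-0.22, SE 0.17) did not pass.

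Factors that set or keep imprints showed no call in the fit behind the reported values. Of 17 listed and tested, 0 passed, and the median was 0.11, against 0.00098 over all genes tested. A log2 fold change above 0 was seen in 14 of them and in 7613 of all 15191 genes. The highest value, named after it was seen, was that of Hells, at 420 and 204 CPM in wild-type and 476 and 466 CPM in knock-in cells. Hells passed as higher without the low-count filter, where 63 of 27017 genes did. The co-repressor gene Trim28 had -0.036 (SE 0.18) and Uhrf1, which guides maintenance methylation, 0.0067 (SE 0.16). Wild-type 2, which deviated with GC content, was the lowest library for Hells, Tet1 and Atrx and the highest for Trim28 and Uhrf1. How much of the values above 0 in this list came from that library was not tested. Zfp57, named for its link to the hexamer above, had 355 and 337 CPM in wild-type and 370 and 409 CPM in knock-in cells (log2 fold change 0.17, SE 0.14).

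Partners and relatives of the other members were also without a call in the fit behind the reported values. Among 8 tested subunits of the COPI coat, the median was 0.017, with 0.012 (SE 0.14) for Copa, 0.13 (SE 0.14) for Copb2 and, named as the paralog of Copg2, -0.10 (SE 0.17) for Copg1. Among 10 tested genes of the sarcoglycan and dystrophin complex the median was 0.044, with -0.18 (SE 0.14) for the dystroglycan gene Dag1. Among 6 tested genes derived from retrotransposon gag genes it was -0.10, with -0.71 (SE 0.21) for Rtl6 and -0.27 (SE 0.24) for Rtl10. The paraoxonase gene Pon3 had -0.15 (SE 0.36), and Pon1 was listed at 0 reads in every library. Among 16 Kruppel-like factor genes the median was 0.20, with 0.013 (SE 0.14) for Klf5 and -0.10 (SE 0.19) for Klf2. None of these lists held a gene past the threshold in that fit. Some of their genes passed under alternatives, such as Klf16 as higher with the GC correction and the replicate block, where 125 of 15191 genes did.

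By Euclidean distance between log2 CPM profiles, each centred on its own mean over the 4 libraries, the gene most like Mest among 12150 compared was Pramef17 (distance 0.34), followed by the homeobox genes Rhox13 (0.36) and Rhox5 (0.38). Pramef17 was also nearest to Plagl1 (0.36), followed by Xlr3b (0.39) and the RNA export factor gene Nxf3 (0.64). Pramef17 had 3.59 and 3.40 CPM in wild-type and 0.697 and 0.588 CPM in knock-in cells, a drop about as steep as that of Mest. The genes nearest to Sgce were Samd12 (0.16), the deubiquitinase gene Usp26 (0.24) and the transcription factor gene Ets1 (0.25), each with wild-type 1 apart. Those nearest to Peg10 were Ralgapa2 (0.018), Vamp1 (0.032) and Mlxip (0.035). With only 4 libraries such likeness is a description.

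Markers of pluripotent cells were high throughout, with summed levels of 6190 to 6314 CPM in wild-type and 6483 to 6812 CPM in knock-in cells over 9 genes. Mest is also strongly expressed in mesenchymal cells, so markers of other cells were summed. The 10 fibroblast and feeder markers came to 39.2 and 41.8 CPM in wild-type and 24.9 and 27.2 CPM in knock-in cells, and 4 of the 6 tested lay below without overlap, where 23.9% of all genes did. Most of this sum was Thy1, at 16.5 and 20.1 CPM against 12.2 and 12.8 CPM, and Pdgfrb, at 16.5 and 15.1 CPM against 8.16 and 9.09 CPM. The feeder markers Lum, Dcn, Postn and Col3a1 were at or near 0 in every library (at most 0.272 CPM), and Col1a1 stood at 2.18 and 2.81 CPM in wild-type and 1.11 and 1.497 CPM in knock-in cells. Pdgfra overlapped between the lines, at 2.14 and 1.22 CPM against 1.52 and 2.30 CPM. Twist1 also overlapped, at 1.05 and 1.45 CPM against 1.19 and 1.02 CPM. The 8 primitive endoderm markers came to 127 and 120 CPM against 62.8 and 61.8 CPM, nearly all of it Col4a1, while Gata6 was at most 1.74 CPM and Foxa2 at most 0.136 CPM. Of the 6 tested, Col4a1 alone lay below without overlap, where 23.9% of all genes did, and the others, Gata4 and Sox7 among them, overlapped. Trophoblast markers came to 45.9 to 46.8 CPM in wild-type and 54.2 to 56.2 CPM in knock-in cells, with Tpbpa and Prl3d1 at 0. Within that list Tfap2c was higher in knock-in cells, at 34.1 and 34.9 CPM against 47.4 and 44.7 CPM, while Eomes was lower, at 9.91 and 8.57 CPM against 6.60 and 6.58 CPM. Markers of mesoderm and neural cells came to 151 and 237 CPM in wild-type and 164 and 151 CPM in knock-in cells, and the high value of wild-type 2 held 204 CPM of Tubb3. These genes were named after their values were seen. The part of such cells in the values for Mest and Plagl1 was not tested. The transcript of the tagged gene, Ep300, had 209 and 210 CPM in wild-type and 181 and 210 CPM in knock-in cells.

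**Figure D5:**
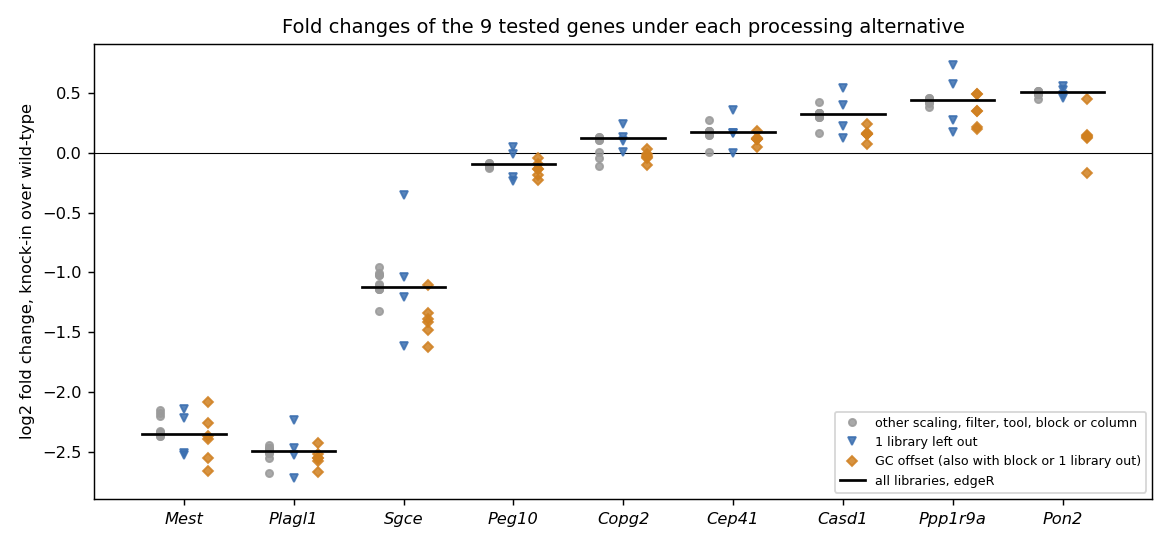
Log2 fold change (knock-in over wild-type) of the 9 tested members with all libraries in edgeR (black line) and under each alternative, grouped as other scaling, filter, tool, block or count column (circles), 1 library left out (triangles) and GC correction (diamonds). Mest stays between -2.66 and -2.09 and Plagl1 between -2.72 and -2.23, while Sgce ranges from -1.62 to -0.36.

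Across the alternatives in that plot, Mest passed as lower in 20 of 20, Plagl1 in 19 and Sgce in 8, against shares of all genes that varied widely. Mest and Plagl1 were chosen by this contrast and the alternatives reuse the same libraries, so their passing again was close to given. The share of all genes called lower was 0.079% with DESeq2 size factors, 1.08% without a low-count filter, 0.0417% at a minimum count of 50, 0.994% with the replicate block, 2.2% with a crossed block and 0.764% with the DESeq2 Wald test. It was 0.0588%, 0.0652% and 0.0765% with the forward, reverse and summed strand columns. It was 13.1% when wild-type 1 was left out and 3.68% when wild-type 2 was, against 0.101% for leaving out knock-in 1 and 0.0866% for knock-in 2. With the GC correction added, the share was 1.88% with the replicate block, 5.22% without wild-type 1, 2.59% without wild-type 2 and 0.594% without knock-in 2.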

How the data were processed

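RNA was sequenced from 2 wild-type and 2 knock-in libraries, prepared with an Illumina TruSeq kit per the labels' protocols. The deposited tables hold raw counts of reads per gene, which per the submitters' processing notes came from Trim Galore and STAR 2.5.3a on GRCm38 (mm10). Which annotation release was counted is not given in the sources used here. GENCODE M21 on GRCm38 matched 54723 of 54838 identifiers and gave symbols, exon lengths and coordinates. The 4 summary rows were kept out of totals, which ran from 18946731 to 26553998 counts. The strand columns split evenly (50.2% to 50.5% reverse), so the unstranded column was used, in which reads shared by overlapping genes are dropped. Such reads were recovered as the sum of the strand columns minus the unstranded column.

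Expression was tested with edgeR 4.0.16 (R 4.3.3): TMM scaling, filterByExpr (minimum count 10), the quasi-likelihood test on genotype alone, and Benjamini-Hochberg adjustment over 15191 genes at 0.05. The standard error is the absolute log2 fold change over the square root of F. Log2 CPM used a prior count of 2. The GC correction took as an offset a natural spline (5 df) of each library's deviation over the GC content of the longest transcript. Alternatives included DESeq2 1.42.0 and limma-voom (limma 3.58.1). The procedure was tested on simulated data, drawn with the same dispersion for every gene and no GC trend. That test therefore does not cover the spread between the wild-type libraries or the GC trend of wild-type 2. The members, lists and alternatives were chosen with earlier results of these data known. Named were all members, neighbours within 500 kb at 1 CPM or more (at most 6 per locus), list genes past the threshold (at most 4) with the 2 most abundant of each list, and the 3 genes with the most similar profile.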

Additional observations from a re-analysis of the deposited data

How the results depend on the processing

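The log2 fold changes of Mest and Plagl1 stayed below 0 under all 20 alternatives, and past the threshold in 20 for Mest and 19 for Plagl1, the exception being limma-voom. Both genes were chosen by this contrast and the alternatives reuse the same libraries, so this describes the fits and adds no support. The shares of all genes called in these fits are given above. Sgce stayed below 0 in all 20 and passed in 8. Peg10 was above 0 in 1, and Copg2 below 0 in 7. Without a low-count filter or with the GC offset, 3 members passed on all libraries, Sgce beside Mest and Plagl1. The same 3 passed with the GC offset and the replicate block, and with the crossed block. With all libraries 10 genes passed. The count was 354 without a low-count filter, 6 at a minimum count of 50, 123 with the DESeq2 Wald test, 4 with limma-voom, 175 with the GC offset and 410 with the GC offset and the replicate block. Leaving out 1 library, it ran from 16 to 5015: the highest left out wild-type 1, leaving out wild-type 2 gave 711, and leaving out the first or second knock-in library 17 or 16. With the GC offset added it ran from 110 to 1800, with 674 where wild-type 2 was left out and 123 where the second knock-in library was. Members past the threshold numbered 2 in edgeR and 1 with limma-voom, and 2 to 5 with a library left out. Genes near the loci past it numbered 0, and 0 to 4 with a library left out, the highest without wild-type 1. Genes of the gene lists past it numbered 1, against 2 with DESeq2 size factors or with the forward-strand, reverse-strand or summed strand columns, 10 without the low-count filter, 3 with the DESeq2 Wald test, 4 with the GC offset, 8 with the GC offset and the replicate block, and 1 to 44 with a library left out. The reported fit tested 9 members, 16 nearby genes and 128 list genes among 15191 genes. The highest counts of all 3 sets came from the fit without wild-type 1, which also called the most genes of all. That fit tested 9 members, 16 nearby genes and 131 list genes among 15622 genes. Higher counts in such fits are therefore not read as results about the members, nearby genes or lists. The cause of the differing counts was not tested.

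The labels number the replicates of both lines alike but do not say that a number marks a shared day. The differences between replicates of the 2 lines correlated at -0.12 across genes. This is 1 pair per line, so whether a number marks a shared day was not settled, and the numbers were not used as a block in the reported values. With the replicate number as a block, 197 genes passed, 3 of them in the gene lists, with 2 members among them. A crossed block, added after the data were seen, gave 509 genes and 11 in the lists. Fits without a library take their spread from the other line's pair alone. With 34 to 42 reads of Plagl1 and 41 to 47 of Sgce per knock-in library, counting error limits the low levels.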

Other observations

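In wild-type 1, Sgce had 67 reads in the forward and 105 in the reverse strand column (39.0% forward), while its split was between 44.7% and 53.7% in the other libraries and that of Peg10 between 48.3% and 49.3% in all 4. Wild-type 1 is also the library in which Sgce was highest. The split was named after it was seen and rests on 172 reads, against 7172 to 11497 reads of Peg10 per library. The log2 fold change of Sgce was -0.95 with the forward and -1.32 with the reverse strand column.

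Beyond 500 kb and up to 1 Mb from the loci, 0 further genes passed in edgeR, where 0.0658% of all genes did. Of the 29 tested within 1 Mb, 1 had an unadjusted edgeR p under 0.05, against 1662 of all 15191 genes. The vesicle transport gene Bet1, named after its value was seen, starts between 500 kb and 1 Mb from Peg10 and had 12.6 and 7.80 CPM in wild-type and 15.4 and 17.1 CPM in knock-in cells (log2 fold change 0.67, SE 0.25, edgeR adjusted p = 0.424).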
